A study of Mus musculus with 4 samples.

Results

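Microglia and border macrophages are the resident macrophages of the fetal brain, and 34 genes that mark them were followed in E16 mouse cerebral cortex of Cd93 knockout (KO) and wild-type (WT) animals. The 34 genes were picked by name, 27 as microglial and 7 as border macrophage genes (Mrc1, Lyve1, Cd163, F13a1, Pf4, Ms4a7 and Stab1), out of 20385 genes listed in both deposited tables. All 34 were found. The libraries were made from total RNA of dissected cortex of C57BL/6 embryos. There are 2 KO libraries (KO 5, KO 6) and 2 WT libraries (WT 1, WT 4). The part of Cd93 that was deleted, and whether other alleles were present, is not given in the labels. The authors deposited their counts as 2 tables of 1 KO and 1 WT library each, here called table A (KO 6 and WT 1) and table B (KO 5 and WT 4). The labels do not say that the libraries came from separate animals, so p-values measure only the spread between these libraries.

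Microglia arise from yolk sac progenitors, enter the brain early in gestation and spread through its parenchyma, where they clear dying cells and prune synapses. Border macrophages of the meninges, perivascular spaces and choroid plexus stem largely from the same progenitors but keep scavenger receptor genes such as Mrc1, Cd163 and Lyve1 that parenchymal microglia lack or lose. Both need CSF1R, the receptor of CSF1 and IL-34, and the transcription factor PU.1, which Spi1 encodes. CD93, the deleted protein, is a C-type lectin-like receptor known mainly from endothelial cells.

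The targeted gene followed the labels. Cd93 had 111 counts in KO 5 and 99 in KO 6, against 680 in WT 1 and 409 in WT 4. The label of the tissue was checked on the cortical neuron gene Neurod2, which was at 897 CPM, the count scaled to the size of its library, in KO 5 and 688 CPM in KO 6, against 601 CPM in WT 1 and 787 CPM in WT 4. Depth was 17555476 counts in KO 5, 16318317 in KO 6, 17586157 in WT 1 and 17158867 in WT 4, so that 1 count was worth 0.0563 to 0.0616 CPM. WT 1 stood apart from the other libraries in how many genes were raised in it alone. It was the highest of the 4 libraries in 27.7% of the 20385 genes and at least 2-fold above the next library in 2.75%. The other libraries were at least 2-fold above the next in 0.633% of genes for KO 5, 1.20% for KO 6 and 1.27% for WT 4. Group medians and the fold changes of the members are therefore given with and without WT 1, and the plot of fold changes shows both for all 32 tested members. Cortex was sequenced in bulk, and fewer cells of a type cannot be told apart from less RNA per cell.

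PU.1 binds a purine-rich motif with a GGAA core, and promoter stretches that hold it are shown for genes of both groups, because both carry it while their levels ran differently across the libraries. The 250 bases upstream of the annotated start were taken from RefSeq (GRCm38.p6), for 27 of the 34 members. AGGAAGT, on either strand, lay in these stretches of 9 of the 27 genes, 6 of them microglial (C1qb, C1qc, Fcrls, P2ry12, Ptprc and Sall1) and 3 border macrophage genes (F13a1, Mrc1 and Pf4). It lay in 7.69% of 32851 mouse promoter stretches of the same length, counted per stretch, while a member counts once whichever of its starts holds the motif. The 6 stretches below run 5′ to 3′ on the strand of the gene up to its start, and the capitals mark AGGAAGT or its reverse complement ACTTCCT.
Mrc1: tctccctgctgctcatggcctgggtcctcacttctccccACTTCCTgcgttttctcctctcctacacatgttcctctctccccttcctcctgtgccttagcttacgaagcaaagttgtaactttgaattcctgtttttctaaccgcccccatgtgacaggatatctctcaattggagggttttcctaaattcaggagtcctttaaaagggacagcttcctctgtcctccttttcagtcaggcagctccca
Pf4: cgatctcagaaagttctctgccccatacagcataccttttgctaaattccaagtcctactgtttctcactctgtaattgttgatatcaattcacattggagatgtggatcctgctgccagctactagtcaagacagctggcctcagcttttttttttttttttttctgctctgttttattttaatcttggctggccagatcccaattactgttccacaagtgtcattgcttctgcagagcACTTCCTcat
F13a1: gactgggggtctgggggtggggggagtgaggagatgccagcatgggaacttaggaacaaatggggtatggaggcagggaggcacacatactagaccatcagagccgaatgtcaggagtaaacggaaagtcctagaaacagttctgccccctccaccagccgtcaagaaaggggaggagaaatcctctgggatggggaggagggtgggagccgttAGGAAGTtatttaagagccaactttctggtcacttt
C1qb: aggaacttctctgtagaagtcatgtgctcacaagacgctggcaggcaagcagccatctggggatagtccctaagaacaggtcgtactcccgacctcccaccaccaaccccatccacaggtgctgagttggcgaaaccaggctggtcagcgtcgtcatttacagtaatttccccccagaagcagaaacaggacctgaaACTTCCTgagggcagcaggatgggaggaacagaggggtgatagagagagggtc
C1qc: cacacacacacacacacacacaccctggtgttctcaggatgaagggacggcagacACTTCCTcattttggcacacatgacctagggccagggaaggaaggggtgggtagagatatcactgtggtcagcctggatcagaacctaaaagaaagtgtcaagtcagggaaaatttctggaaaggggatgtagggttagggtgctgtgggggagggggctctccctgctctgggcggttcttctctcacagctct
P2ry12: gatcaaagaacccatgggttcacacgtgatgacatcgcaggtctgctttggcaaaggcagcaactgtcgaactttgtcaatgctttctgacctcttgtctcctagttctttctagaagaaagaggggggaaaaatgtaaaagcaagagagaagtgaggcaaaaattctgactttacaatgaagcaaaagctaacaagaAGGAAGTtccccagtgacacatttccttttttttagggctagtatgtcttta
They are chr2:14229164-14229413 on the plus strand for Mrc1, chr5:90772185-90772434 on the plus strand for Pf4, chr13:37049214-37049463 on the minus strand for F13a1, chr4:136886201-136886450 on the minus strand for C1qb, chr4:136892915-136893164 on the minus strand for C1qc and chr3:59262986-59263235 on the minus strand for P2ry12. The motif began 10 bases before the start in Pf4, 36 in F13a1, 52 in P2ry12, 53 in C1qb, 195 in C1qc and 211 in Mrc1. The RefSeq starts of F13a1, C1qc and Mrc1 lie inside the spans that the deposited tables give for these genes. Of 7 other motifs searched on both strands, GGAAGT, which AGGAAGT contains, lay in 12 of the 27 genes and in 19.7% of all stretches. The longer GAGGAAGT lay in 2 genes (C1qc and Pf4) and 2.44% of stretches, and AGAGGAAGT in 0 genes and 0.798%. AGGAAC was found in 8 genes and 15.1% of stretches, GGGAAGT in 1 and 4.82%, TGCTGAC in 1 and 3.81%, and TGACGTCA in 0 and 1.55%. These are matches of letters and not measured binding sites.

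The border macrophage genes were high in WT 1 and low in the other 3 libraries. Mrc1, the mannose receptor CD206 (chromosome 2, 14229392 to 14332057, GRCm38 positions as deposited), had 21 counts in KO 5 and 47 in KO 6, against 365 in WT 1 and 34 in WT 4. Lyve1, a hyaluronan receptor of border macrophages and lymphatic endothelium (chromosome 7, 110850607 to 110863239), had 5 counts in KO 5 and 18 in KO 6, against 203 in WT 1 and 10 in WT 4. In both genes WT 4 lay between KO 5 and KO 6, so the genotypes overlapped, and WT 1 was the library that stood alone.

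F13a1, the A chain of clotting factor XIII, which tissue macrophages also make (chromosome 13, 36867178 to 37050244), had 19 counts in KO 5 and 35 in KO 6, against 325 in WT 1 and 38 in WT 4. Of the 7 border macrophage genes it alone had both KO libraries under both WT libraries in CPM, a pattern held by 11.9% of tested genes, and KO 6 at 2.16 CPM was next to WT 4 at 2.23 CPM. Pf4, a chemokine of megakaryocytes and platelets that border macrophages also express (chromosome 5, 90772435 to 90773383), had 2 counts in KO 5 and 6 in KO 6, against 128 in WT 1 and 4 in WT 4. Cd163, the haemoglobin-haptoglobin scavenger receptor (chromosome 6, 124304656 to 124330527), had 4 counts in KO 5 and 12 in KO 6, against 62 in WT 1 and 3 in WT 4. Both genes were again high in WT 1 alone, and for Cd163 both KO libraries were above WT 4. Ms4a7, a membrane-spanning protein gene of border macrophages (chromosome 19, 11321039 to 11336146), was near the limit of detection with 4 counts in KO 5 and 0 in KO 6, against 13 in WT 1 and 1 in WT 4. A floor of 3 counts was 0.169 to 0.185 CPM, and the KO 6 and WT 4 values of Ms4a7 lay under it.

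Stab1, a scavenger receptor that sinusoidal and some other endothelial cells express too (chromosome 14, 31139013 to 31168641), was the most abundant of the 7 in CPM and had the flattest base. It had 196 counts in KO 5 and 188 in KO 6, against 749 in WT 1 and 191 in WT 4. Its CPM in KO 5, KO 6 and WT 4 differed by a factor of 1.04 from lowest to highest, against 2.06 for F13a1 and 4.20 for Cd163. Exons of Stab1 overlap Nt5dc2 on the other strand, and F13a1 overlaps Gm30489, and since no source used here says how strand was treated, the reads of such pairs cannot be told apart. Per kilobase of exon, mean levels over the 4 libraries ranged from 0.0572 CPM for Ms4a7 and 0.212 CPM for Cd163 to 1.85 CPM for Stab1 and 2.75 CPM for Pf4.

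**Figure D1:**
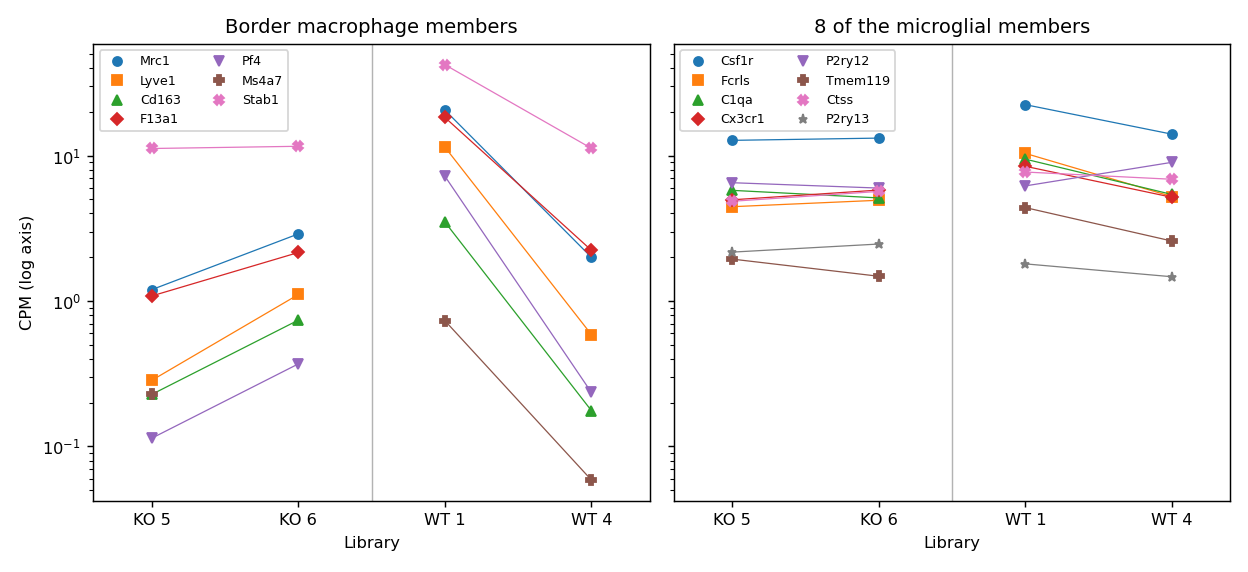
CPM on a log axis for the 7 border macrophage genes (left) and 8 of the 27 microglial genes (right) in KO 5, KO 6, WT 1 and WT 4, each point 1 library and lines joining the libraries of a genotype. Every border macrophage gene peaks in WT 1 (Mrc1 is at 1.20 CPM in KO 5 and 2.90 CPM in KO 6, against 20.5 CPM in WT 1 and 2.00 CPM in WT 4), while the microglial genes differ less between libraries. Ms4a7 had 0 counts in KO 6 and is not drawn there.

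WT 1 exceeded the next highest library in all 7 border macrophage genes, by 19.5-fold for Pf4, 10.3-fold for Lyve1, 8.19-fold for F13a1, 7.09-fold for Mrc1, 4.72-fold for Cd163, 3.64-fold for Stab1 and 3.20-fold for Ms4a7. All 7 were thus at least 2-fold above the next library, beside 2.75% of all genes. The KO libraries differed from each other relative to WT 4, KO 5 being below it in 5 genes (Mrc1, Lyve1, F13a1, Pf4 and Stab1). Both KO libraries lay below WT 4 in 1 of the 7 genes, where 28.4% of tested genes did so, and both lay below WT 1 in 7 of 7, where 32.3% of tested genes did so.

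None of the border macrophage genes passed the test with 4 libraries. Each of the 16371 genes that passed the filter on low counts was tested by edgeR's quasi-likelihood method, p-values were adjusted over all of them by Benjamini and Hochberg, and 0.0122% were called at an adjusted p of 0.05. Fold changes below are log2 of KO over WT with their SE, from the same fit. They were -2.66 (SE 0.92) for F13a1, -2.46 (SE 0.998) for Mrc1, -3.11 (SE 1.27) for Lyve1, -1.93 (SE 1.18) for Cd163 and -1.23 (SE 0.54) for Stab1, the 5 that were tested. F13a1, Mrc1 and Lyve1 had unadjusted p of 0.0254, 0.0451 and 0.0461, each with an edgeR adjusted p of 0.9999. The same test did not call the targeted gene Cd93 either, though its genotypes did not overlap. Cd93 was at -2.32 (SE 0.25), with an unadjusted p of 5.14e-05 and an edgeR adjusted p of 0.211. Pf4 and Ms4a7 did not pass the filter. Their summed counts were 8 in KO and 132 in WT for Pf4, a ratio after scaling to depth of 0.0622 (95% counting interval 0.0263 to 0.126), and 4 in KO and 14 in WT for Ms4a7, a ratio of 0.293 (0.0702 to 0.933). These intervals cover counting error only, and 128 of the 132 WT counts of Pf4 came from WT 1.

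Without WT 1 the fold changes of the 5 tested genes lay near or above 0, apart from that of F13a1. On the log2 scale they were 0.03 for Mrc1, 0.23 for Lyve1, 1.40 for Cd163, 0.02 for Stab1 and -0.47 for F13a1. The value of Cd163 rests on 3 counts in WT 4. None of the members tested was called there, where edgeR called 0.259% of the genes tested. Without WT 4 instead, 6 of the 7 border macrophage genes were called lower in KO, beside 1.52% of all genes tested. Their log2 fold changes were -3.49 for F13a1 (edgeR adjusted p = 1.39e-08), -3.33 for Mrc1 (4.21e-08), -4.04 for Lyve1 (1.43e-07), -4.87 for Pf4 (1.70e-07), -1.88 for Stab1 (4.64e-07) and -2.85 for Cd163 (0.00327). Both of these fits leave 1 WT library, which is assumed to vary like the KO libraries.

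The same split ran between the deposited tables. Within table A (KO 6 over WT 1) the log2 ratio of CPM was -2.78 for Mrc1, -3.23 for Lyve1, -3.02 for F13a1, -3.91 for Pf4, -2.86 for Ms4a7, -2.07 for Cd163 and -1.85 for Stab1. Within table B (KO 5 over WT 4) it was -0.68 for Mrc1, -0.81 for Lyve1, -0.97 for F13a1, -0.61 for Pf4, 0.98 for Ms4a7, 0.24 for Cd163 and 0.00 for Stab1. The ratio was thus below 0 in table A for all 7 and near or above 0 in table B for Stab1, Cd163 and Ms4a7. In the authors' deposited table A, 7 of the 7 border macrophage genes are marked significant and lower in KO, beside 3.59% of the genes listed. In the authors' deposited table B none of the 34 members is marked, beside 1.60% of the genes listed. The authors' marks compare 1 library with 1 library.

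**Figure D2:**
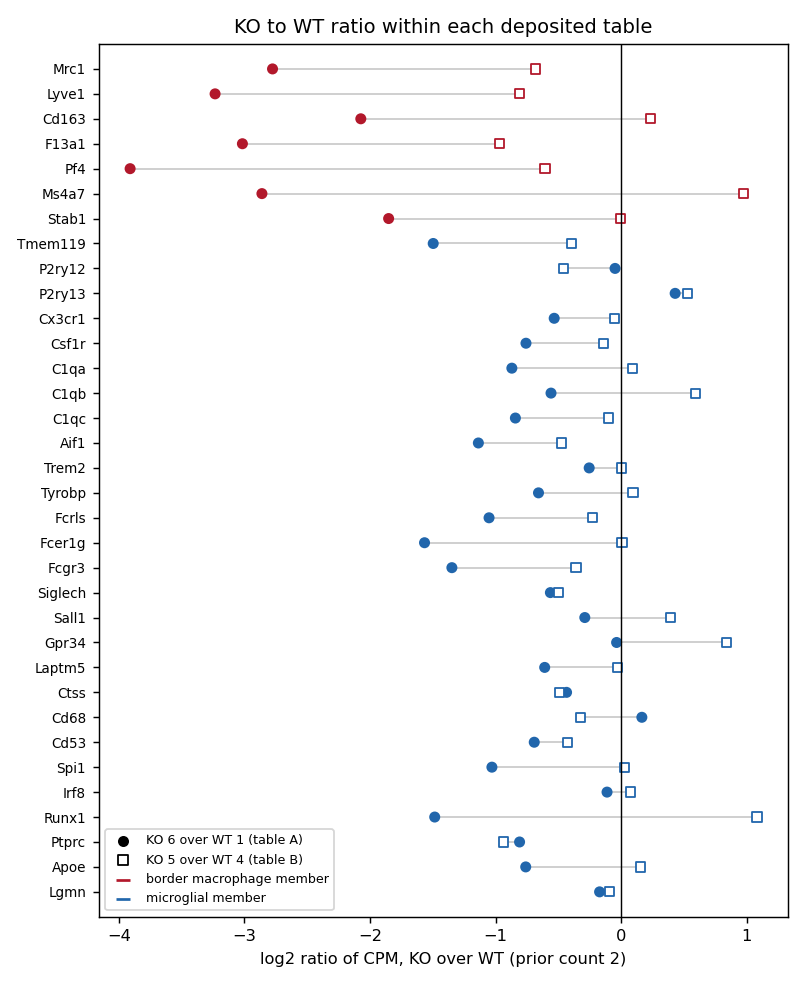
Log2 ratio of CPM, KO over WT, for the 34 members within table A (filled circles, KO 6 over WT 1) and within table B (open squares, KO 5 over WT 4), with border macrophage genes in red and microglial genes in blue. In table A the border macrophage genes lie between -3.91 and -1.85, far left of their table B values, and the microglial genes move less between the tables.

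Microglial genes differed much less between the libraries. Csf1r, the growth factor receptor on which microglia depend, had 223 counts in KO 5 and 214 in KO 6, against 398 in WT 1 and 239 in WT 4. Its level was 12.96 ± 0.326 CPM in KO and 18.2 ± 5.91 CPM in WT (SD, n = 2 each), with a log2 fold change of -0.49 (SE 0.24), or -0.11 without WT 1. Both KO libraries were under both WT libraries, though KO 6 at 13.2 CPM was close to WT 4 at 14.0 CPM. Exons of Csf1r overlap Hmgxb3 on the other strand.

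Among the genes most restricted to microglia, Tmem119, a surface protein of mature microglia, had 34 counts in KO 5 and 24 in KO 6, against 78 in WT 1 and 44 in WT 4. Its log2 fold change was -1.02 (SE 0.39), with an unadjusted p of 0.0349 and an edgeR adjusted p of 0.9999. The genotypes did not overlap, and without WT 1 the value was -0.59. P2ry12, the ADP receptor that guides microglial processes to injury, had 114 counts in KO 5 and 97 in KO 6, against 110 in WT 1 and 153 in WT 4. Here WT 4 was the highest library and WT 1 lay between KO 6 and KO 5 in CPM, and the log2 fold change was -0.28 (SE 0.27), or -0.52 without WT 1. P2ry12 overlaps exons of Med12l on the other strand. Its neighbour and relative P2ry13, also a nucleotide receptor, had 38 counts in KO 5 and 40 in KO 6, against 32 in WT 1 and 25 in WT 4. It was the only member with both KO libraries above both WT libraries, a pattern held by 11.5% of tested genes. Its log2 fold change was 0.50 (SE 0.33), or 0.66 without WT 1.

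Cx3cr1, the receptor of the neuronal chemokine fractalkine, had 87 counts in KO 5 and 94 in KO 6, against 150 in WT 1 and 88 in WT 4. Only WT 1 was high, the other 3 libraries lay within a factor of 1.17 of each other, and Gm33858 overlaps its exons on the other strand. Fcrls, an Fc receptor-like scavenger receptor gene of mouse microglia, had 78 counts in KO 5 and 80 in KO 6, against 184 in WT 1 and 89 in WT 4. Of the 27 microglial genes it stood furthest out in WT 1, 1.98-fold above the next library. Siglech, a sialic acid-binding lectin, had 22 counts in KO 5 and 21 in KO 6, against 35 in WT 1 and 31 in WT 4. Its genotypes did not overlap and both WT libraries were alike, and the log2 fold change was -0.57 (SE 0.34), or -0.51 when WT 1 was left out. Gpr34, a lysophosphatidylserine receptor, had 44 counts in KO 5 and 40 in KO 6, against 45 in WT 1 and 23 in WT 4, so that WT 4 alone was low.

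The 3 subunits of C1q, which microglia supply to the brain and which starts the classical complement cascade, did not separate the genotypes. C1qa had 101 counts in KO 5 and 83 in KO 6, against 168 in WT 1 and 92 in WT 4. C1qb had 125 counts in KO 5 and 145 in KO 6, against 235 in WT 1 and 80 in WT 4. C1qc had 95 counts in KO 5 and 103 in KO 6, against 204 in WT 1 and 99 in WT 4. WT 1 was the highest library for each and WT 4 was lowest for C1qb. The log2 fold changes were -0.45 (SE 0.32), -0.16 (SE 0.46) and -0.56 (SE 0.35) for C1qa, C1qb and C1qc, and without WT 1 they were 0.01, 0.77 and 0.02.

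TREM2 is a lipid receptor that signals through the adaptor DAP12, which Tyrobp encodes, and FcRγ, which Fcer1g encodes, serves the Fc receptors in the same way. Trem2 had 32 counts in KO 5 and 41 in KO 6, against 54 in WT 1 and 31 in WT 4. Tyrobp had 32 counts in KO 5 and 34 in KO 6, against 60 in WT 1 and 29 in WT 4. In both genes WT 1 was highest and WT 4 was below KO 6. Fcer1g had 31 counts in KO 5 and 12 in KO 6, against 43 in WT 1 and 30 in WT 4, and KO 6 was the low library. Fcgr3, a low-affinity Fc receptor, had 30 counts in KO 5 and 20 in KO 6, against 59 in WT 1 and 38 in WT 4, with no overlap and a log2 fold change of -0.91 (SE 0.38; unadjusted p 0.0492, edgeR adjusted p 0.9999), or -0.59 without WT 1. Fcgr3 has close paralogs, and how reads shared with them were counted is not given.

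The transcription factors of the set were low and scattered. Spi1 had 21 counts in KO 5 and 12 in KO 6, against 29 in WT 1 and 20 in WT 4. Irf8, which acts with PU.1, had 25 counts in KO 5 and 37 in KO 6, against 44 in WT 1 and 23 in WT 4. Runx1, a factor of early blood progenitors, had 11 counts in KO 5 and 4 in KO 6, against 16 in WT 1 and 4 in WT 4, and Gm26626 overlaps its exons on the other strand. The genotypes overlapped in all 3. Sall1, a microglial identity factor that neural progenitors also express, was far higher, with 974 counts in KO 5 and 591 in KO 6, against 792 in WT 1 and 720 in WT 4, and here the WT libraries lay between the KO libraries.

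Of the haematopoietic and lysosomal genes, those with few counts in these libraries were the ones that came out furthest below WT. Ptprc, which encodes the pan-leukocyte phosphatase CD45, had 6 counts in KO 5 and 7 in KO 6, against 15 in WT 1 and 13 in WT 4. Its log2 fold change of -1.05 (SE 0.49) was the lowest of the tested microglial genes, and it was -0.97 without WT 1. Aif1, which encodes the actin-binding protein IBA1 used to stain microglia, had 12 counts in KO 5 and 11 in KO 6, against 29 in WT 1 and 17 in WT 4, with a log2 fold change of -0.94 (SE 0.45), or -0.55 without WT 1. Both genes had no overlap between the genotypes at counts of 6 to 29. Cd53, a tetraspanin of leukocytes, had 24 counts in KO 5 and 23 in KO 6, against 42 in WT 1 and 32 in WT 4. Laptm5, a lysosomal membrane protein of haematopoietic cells, had 161 counts in KO 5 and 125 in KO 6, against 210 in WT 1 and 160 in WT 4. Neither overlapped between the genotypes in CPM, and for Laptm5 KO 5 at 9.19 CPM was close to WT 4 at 9.40 CPM.

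Ctss, which encodes the lysosomal protease cathepsin S, had 85 counts in KO 5 and 92 in KO 6, against 137 in WT 1 and 117 in WT 4. Both KO libraries were lower than both WT libraries, at 5.26 ± 0.579 CPM in KO and 7.29 ± 0.590 CPM in WT (SD, n = 2 each), and the log2 fold change was -0.47 (SE 0.24) with 4 libraries and -0.39 without WT 1. Cd68, a lysosomal membrane protein of macrophages, had 188 counts in KO 5 and 212 in KO 6, against 207 in WT 1 and 229 in WT 4. Its genotypes overlapped and WT 1 was not its highest library. Lgmn, which encodes the protease legumain, had 671 counts in KO 5 and 558 in KO 6, against 689 in WT 1 and 695 in WT 4. Apoe, the lipid carrier that radial glia and astrocytes also make, had 1242 counts in KO 5 and 1029 in KO 6, against 1911 in WT 1 and 1087 in WT 4. Lgmn was slightly lower in both KO libraries, and Apoe was high in WT 1 alone. Per kilobase of exon Apoe (35.7 CPM) and Lgmn (16.4 CPM) led the 34 genes, followed by Cd68 (9.73 CPM), Sall1 (8.49 CPM), C1qb (7.81 CPM) and C1qa (6.19 CPM), while Runx1 (0.0418 CPM) and Ptprc (0.0325 CPM) were lowest.

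As a group the microglial genes were lower in KO by less than the border macrophage genes. All 27 were tested and none was called. Their log2 fold changes were below 0 in 24 and above 0 in 3 (P2ry13, Sall1 and Gpr34), with a median of -0.37, beside a median of 0.00 with 8349 genes lower and 8022 higher over all genes tested. The 5 tested border macrophage genes were all below 0, with a median of -2.46. The microglial median was -0.66 within table A and -0.06 within table B, against -2.86 and -0.61 for the border macrophage genes. Crossing the tables, KO 5 over WT 1 gave -0.70 and KO 6 over WT 4 gave -0.09 for microglial genes, against -3.94 and 0.47 for border macrophage genes. The direction of the microglial median stayed below 0 for every pair of a KO with a WT library, and its size depended on whether the WT library was WT 1.

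**Figure D3:**
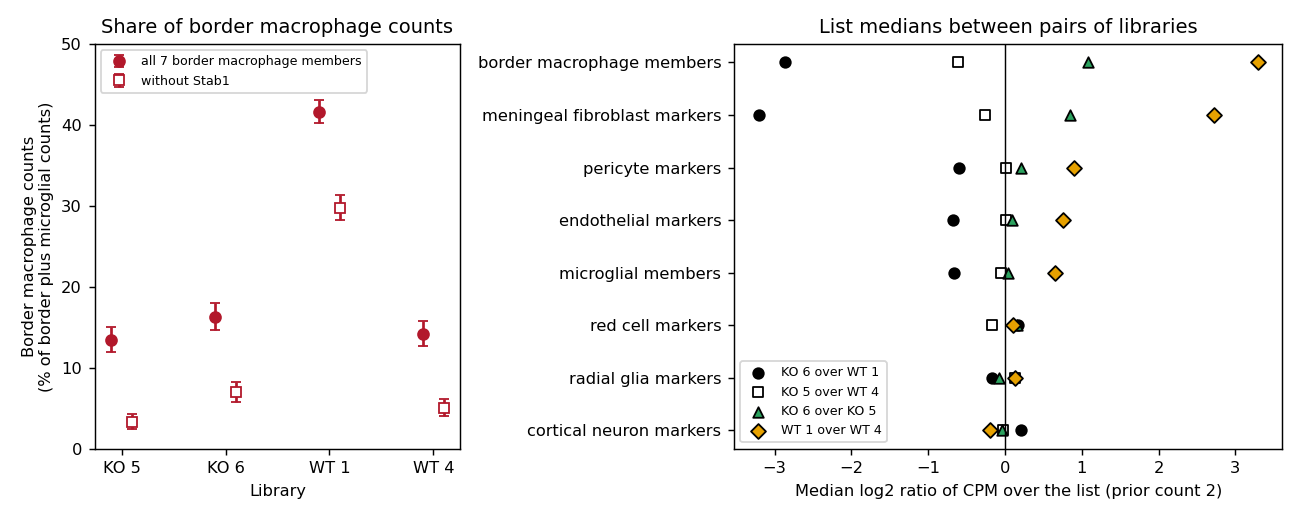
Left, border macrophage counts as a percent of border macrophage plus microglial counts in each library, for all 7 border macrophage genes and without Stab1. Microglial counts are those of the 24 microglial genes without Apoe, Lgmn and Sall1, and the 95% exact binomial intervals cover counting error only. Right, median log2 ratio of CPM over each gene list for KO 6 over WT 1, KO 5 over WT 4, KO 6 over KO 5 and WT 1 over WT 4. The share is 13.4% in KO 5 and 16.3% in KO 6, against 41.7% in WT 1 and 14.1% in WT 4, and the medians of border macrophage and meningeal fibroblast lists lie far from 0 wherever WT 1 enters.

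The balance between the 2 groups of macrophage genes set WT 1 apart from the other 3 libraries. Counts of the 7 border macrophage genes were set against counts of the 24 microglial genes without Apoe, Lgmn and Sall1, which neural cells also express. Border macrophage counts made up 13.4% in KO 5 (95% exact Clopper-Pearson interval 11.9 to 15.1) and 16.3% in KO 6 (14.7 to 18.1), against 41.7% in WT 1 (40.2 to 43.1) and 14.1% in WT 4 (12.6 to 15.8). WT 4 lay between the KO libraries. Without Stab1 the shares were 3.29% in KO 5 (2.48 to 4.26) and 6.99% in KO 6 (5.82 to 8.31), against 29.8% in WT 1 (28.3 to 31.3) and 5.01% in WT 4 (4.05 to 6.12). On that measure the KO libraries differed from each other by more than counting error, and the median log2 ratio of KO 6 over KO 5 over the 7 border macrophage genes was 1.08. WT 1 was the highest library in 22 of the 27 microglial genes but at least 2-fold above the next in none, against 7 of 7 on both measures for the border macrophage genes.

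Meningeal fibroblast genes were highest in WT 1 too, and some of them were also lower in KO than in WT 4. The summed level of 15 such markers was 82.8 CPM in KO 5 and 119 CPM in KO 6, against 573 CPM in WT 1 and 123 CPM in WT 4. The border macrophage genes summed to 14.3 CPM in KO 5 and 18.9 CPM in KO 6, against 104 CPM in WT 1 and 16.5 CPM in WT 4. Of the 15 fibroblast markers, WT 1 was highest in 14 and at least 2-fold above the next library in 13, beside 27.7% and 2.75% of all genes. The collagen gene Col3a1 was at 6.79 CPM in KO 5 and 10.8 CPM in KO 6, against 157 CPM in WT 1 and 16.6 CPM in WT 4. Both KO libraries lay below both WT libraries in 6 of the 13 tested fibroblast markers, beside 11.9% of all tested genes. With the table as a block edgeR called 6 of the 13, beside 0.177% of the genes tested. Among the 6 were Lum, Col1a2, Col1a1 and Col3a1, all lower in KO (edgeR adjusted p = 0.00819, 0.0121, 0.0220 and 0.0373). Without WT 1, 6 of the 13 were below 0 and 7 above, with Col1a1 at a log2 fold change of -1.36. Endothelial markers summed to 209 CPM in KO 5 and 219 CPM in KO 6, against 333 CPM in WT 1 and 193 CPM in WT 4, and pericyte markers to 185 CPM in KO 5 and 212 CPM in KO 6, against 311 CPM in WT 1 and 184 CPM in WT 4. The part of these cells in the macrophage values was not tested. Megakaryocytes also express Pf4 and F13a1, and 8 other markers of theirs summed to 21.9 CPM in KO 5 and 17.5 CPM in KO 6, against 23.2 CPM in WT 1 and 22.8 CPM in WT 4. Gp1bb made up 14.7 CPM of that sum in KO 5 and 9.31 CPM in KO 6, against 12.04 CPM in WT 1 and 13.9 CPM in WT 4. The platelet genes Ppbp, with 1 count in KO 5 and 1 in KO 6, against 8 in WT 1 and 2 in WT 4, and Clec1b, with 3 counts in KO 5 and 4 in KO 6, against 11 in WT 1 and 8 in WT 4, were highest in WT 1. The integrin gene Itga2b was at 4.74 CPM in KO 5 and 5.67 CPM in KO 6, against 7.54 CPM in WT 1 and 5.93 CPM in WT 4. WT 1 was the highest library in 4 of these 8 markers, and Gp1bb and Gp1ba were not among them. Gp1ba was at 1.77 CPM in KO 5 and 1.91 CPM in KO 6, against 1.80 CPM in WT 1 and 1.70 CPM in WT 4.

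Without WT 1 the microglial genes were split almost evenly. Of the 27, 15 were then below 0 and 12 above, with a median of -0.15, where over all genes tested in that fit 8386 lay below 0 and 8581 above, at a median of 0.00. Of the 5 tested border macrophage genes 1 was below and 4 above, with a median of 0.03. With all 4 libraries, both KO libraries lay below both WT libraries in 11 of the 27 microglial genes (Tmem119, Csf1r, Aif1, Fcrls, Fcgr3, Siglech, Laptm5, Ctss, Cd53, Ptprc and Lgmn), where 11.9% of tested genes did so. In the border macrophage group that held for 1 of 7. Against WT 4 alone both KO libraries were lower in 13 microglial genes, beside the 28.4% of all tested genes, and against WT 1 alone in 23, beside 32.3%. Siglech, Ptprc, Ctss and Lgmn kept most of their difference without WT 1, at -0.51, -0.97, -0.39 and -0.17 on the log2 scale, and Fcrls and Csf1r did not, at -0.16 and -0.11.

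**Figure D4:**
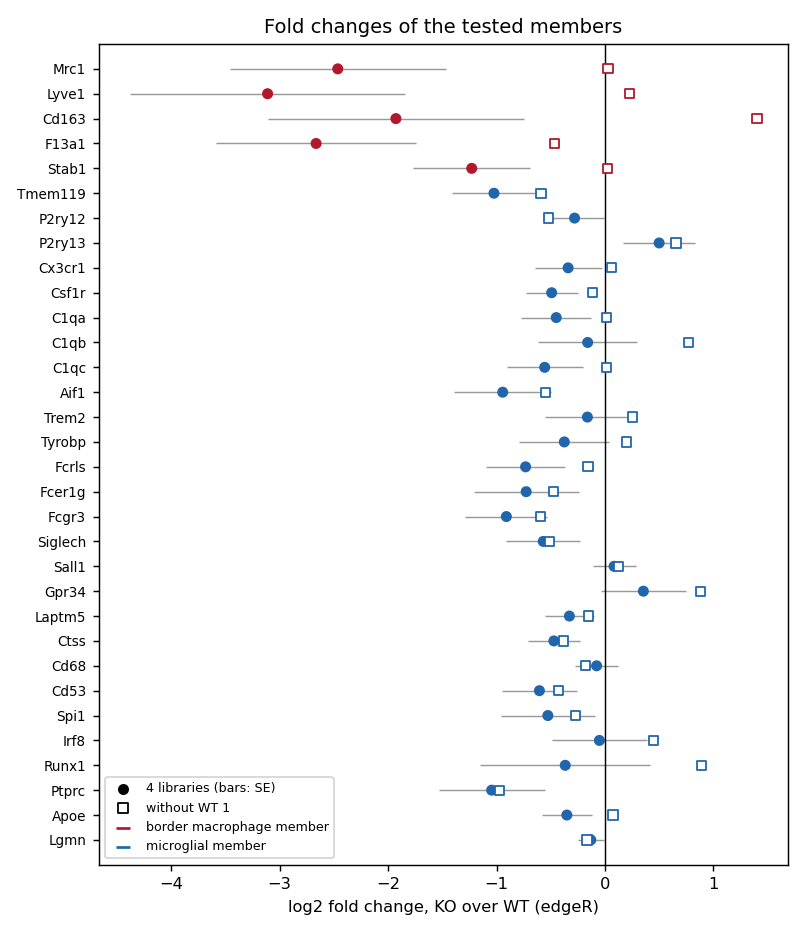
Log2 fold change of KO over WT from edgeR for the 32 tested members with all 4 libraries (filled circles, bars show the SE) and without WT 1 (open squares), with border macrophage genes in red and microglial genes in blue. Leaving out WT 1 moves the border macrophage genes from between -3.11 and -1.23 to between -0.47 and 1.40, and moves Ptprc, Siglech and Ctss little. The value of 1.40 is that of Cd163, which had 3 counts in WT 4.

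No other analysis with all 4 libraries called a member. DESeq2 called 0.0489% of the genes tested and the edgeR model with the deposited table as a block called 0.177%, and in both 0 of the 32 tested members were among them. Both called Cd93, at an adjusted p of 3.91e-12 with DESeq2 and 0.000971 with the edgeR block model. In the edgeR test without a block 5 members were among the 317 of 16371 genes with an unadjusted p under 0.05 (F13a1, Tmem119, Mrc1, Lyve1 and Fcgr3). Without WT 4, 23 of the 27 microglial genes were below 0 and 4 above, with a median log2 fold change of -0.71. Apoe, at -0.67, and Fcrls, at -1.14, were also called lower in KO there, and the other microglial genes were not. That fit leaves 1 WT library, so these calls carry the same limit as those of the border macrophage genes in it. In the authors' deposited table A, 7 of the 27 microglial genes are marked lower (Aif1, Fcer1g, Fcgr3, Fcrls, Runx1, Spi1 and Tmem119), beside 3.59% of the genes listed.

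Further macrophage and pathway genes were read from lists chosen with earlier results of these data known, and none of the genes in these lists was called by edgeR with 4 libraries, with or without the table as a block. Of 7 tested further border macrophage genes all were below 0, with a median of -1.33, and without WT 1 4 were below and 3 above, with a median of -0.0093. Colec12, a scavenger collectin, was at 1.71 CPM in KO 5 and 3.02 CPM in KO 6, against 25.8 CPM in WT 1 and 1.53 CPM in WT 4, and Dab2, an endocytic adaptor, at 7.71 CPM in KO 5 and 7.89 CPM in KO 6, against 33.4 CPM in WT 1 and 5.70 CPM in WT 4. Both followed Mrc1 in being high in WT 1 alone, and other cells express both. Cd36, a scavenger receptor that endothelial cells also express, had 1 count in KO 5 and 1 in KO 6, against 17 in WT 1 and 15 in WT 4. Its WT libraries were alike, with a log2 fold change of -3.80, or -3.74 when WT 1 was left out, and it was not called (edgeR unadjusted p 0.000909). Of 25 further microglia and macrophage genes tested 19 were below 0 and 6 above, with a median of -0.18. Without WT 1, 26 of that list passed the filter, 13 below and 13 above, with a median of -0.0110.

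Genes listed as signals to microglia showed no common direction. The list holds genes of CSF1R and TGF-beta signalling and some outside these pathways, such as Fcgrt. Of its 10 tested genes 6 were below 0 and 4 above, with a median of -0.12 (5 and 5 without WT 1, median 0.0219). Il34, a ligand of CSF1R, had 19 counts in KO 5 and 7 in KO 6, against 49 in WT 1 and 14 in WT 4. Tgfb1, which microglia need to mature, had 73 counts in KO 5 and 52 in KO 6, against 102 in WT 1 and 82 in WT 4, or -0.52 on the log2 scale and -0.38 when WT 1 was left out. Tgfbr2, a receptor subunit for TGF-beta that many cells express, had 123 counts in KO 5 and 111 in KO 6, against 280 in WT 1 and 138 in WT 4. KO was lower than both WT libraries for Tgfb1 and Tgfbr2, and for Il34 WT 4 lay between the KO libraries. Of 12 tested genes of TREM2, DAP12 and Fc receptor signalling 5 were below 0 and 7 above (median 0.04), and of 12 further complement genes 7 below and 5 above (median -0.03). Of 22 lysosome and phagocytosis genes 18 were below 0 and 4 above (median -0.09), and without WT 1 13 were below and 9 above (median -0.0160). Without WT 1 the TREM2 list had a median of -0.0318 and the complement list one of -0.0163.

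Both KO libraries lay below both WT libraries in 7 of 22 tested lysosome and phagocytosis genes, 3 of 16 myeloid transcription factors and 2 of 12 further complement genes, where 11.9% of all tested genes did so. Irf5, an interferon regulatory factor of myeloid cells, had 10 counts in KO 5 and 9 in KO 6, against 21 in WT 1 and 20 in WT 4. C3ar1, the receptor of the complement fragment C3a on microglia, had 9 counts in KO 5 and 13 in KO 6, against 20 in WT 1 and 32 in WT 4. Klf4, a zinc finger factor of monocytes and endothelium, had 27 counts in KO 5 and 21 in KO 6, against 50 in WT 1 and 65 in WT 4. Their log2 fold changes were -1.06, -1.19 and -1.22 with 4 libraries and -1.05, -1.51 and -1.42 without WT 1, and none was called. Cd9, a tetraspanin that many cells express, went the other way, with 517 counts in KO 5 and 571 in KO 6, against 396 in WT 1 and 415 in WT 4 (log2 fold change 0.47, or 0.41 without WT 1), a pattern held by 11.5% of tested genes. These 4 genes were named for their small p within their lists.

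Blood cell markers were read as a check on what else the tissue held. The adult beta-globin gene Hbb-bs, which has near-identical copies, was at 380 CPM in KO 5 and 837 CPM in KO 6, against 578 CPM in WT 1 and 496 CPM in WT 4. The 9 tested red cell markers had a median of 0.09, with 6 above and 3 below 0, and of 0.07 without WT 1. WT 1 was not the highest library for Hbb-bs, but it was highest in 2 of the 9 markers. The alpha-globin gene Hba-a2 had 156 counts in KO 5 and 161 in KO 6, against 338 in WT 1 and 170 in WT 4. Its log2 fold change was -0.62, or -0.08 without WT 1. Of the 8 neutrophil markers, Prtn3 had 99 counts in KO 5 and 93 in KO 6, against 103 in WT 1 and 110 in WT 4. The other 7 had 0 to 9 counts in KO 5 and 0 to 3 in KO 6, against 2 to 15 in WT 1 and 0 to 2 in WT 4. Ccr2, of monocytes, had 0 counts in KO 5 and 2 in KO 6, against 2 in WT 1 and 0 in WT 4. It is listed in table A only, and a gene that a table does not list is entered as 0. Of the 3 tested monocyte and dendritic cell markers 1 was above 0 and 2 below. H2-Eb1 had 11 counts in KO 5 and 11 in KO 6, against 4 in WT 1 and 0 in WT 4. Its log2 fold change was 2.44 (edgeR unadjusted p 0.0360), and it was not called. Cd74 had 1 count in KO 5 and 1 in KO 6, against 8 in WT 1 and 2 in WT 4. H2-Ab1 had 1 count in KO 5 and 1 in KO 6, against 6 in WT 1 and 6 in WT 4.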

How the data were processed

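RNA of E16 cortex was sequenced from 2 KO and 2 WT libraries. The deposited counts are whole numbers per Ensembl gene, per the file headers. Per the submitters' processing notes the tools were Bowtie2 2.2.3, TopHat2 2.0.12 and HTSeq 0.6.0 with the build mm9, but the deposited positions are those of GRCm38, and strand setting is not given in the sources used here. The authors' deposited CPM, log2 fold changes and p-values compare 1 library with 1 library. They marked genes with an adjusted p-value under 0.05 and a 2-fold change, and only those marks were used.

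Tables list 22025 and 21688 genes with at least 2 counts over their libraries, and the 20385 in both were used. filterByExpr of edgeR 4.0.16 (R 4.3.3) left 16371 genes. TMM factors were 0.994 to 1.012, and enter every CPM value. Genotypes were compared by the quasi-likelihood test, two-sided, with Benjamini-Hochberg adjustment. Within-table ratios use a prior count of 2. DESeq2 1.42.0, limma 3.58.1 (voom), 2 other normalizations, 2 other filters, narrower member lists, unlisted genes entered as 0, the table as a block and leaving out each library were tried. Lengths come from GENCODE M21. Scripts were tested on simulated counts. Members and lists were chosen with earlier results of these data known. Named are all members, Cd93 and up to 4 genes of smallest p per list. Neurod2 is one of these. Hbb-bs, Ccr2, Cd74, H2-Ab1, Ppbp, Clec1b, Cma1 and Cpa3 were chosen after their values were seen. The design text speaks of triplicates, and 2 libraries per genotype were analysed.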

Additional observations from a re-analysis of the deposited data

How the results depend on the processing

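With 4 libraries edgeR called 2 genes, and no member. With the deposited table as a block 29 were called and with DESeq2 8, and leaving out 1 library at a time gave 5 to 312, the highest without WT 4 and 44 without WT 1. The labels give the genotypes no shared replicate number, so the table, which holds 1 library of each genotype, is the only pairing that was fitted. The median log2 fold change of the border macrophage genes ranged from -3.33 to 0.0289 when libraries were left out, and its difference from the microglial median from -2.81 to 0.18, in both cases above 0 only without WT 1. Members with both KO libraries below the WT libraries numbered 13 to 23 (microglial) and 1 to 7 (border macrophage) when 1 WT library was left out, the higher count without WT 4. With 1 WT library this is easier to meet, and 28.4% of all tested genes met it without WT 1 and 32.3% without WT 4. This way of counting was chosen after seeing the data. With limma-voom only C1qb changed sign, at 0.0024. Leaving out libraries turned the sign of 17 members, with ranges of -3.33 to 0.0289 for Mrc1, -4.36 to 0.23 for Lyve1, -2.96 to 1.40 for Cd163, -1.88 to 0.0222 for Stab1, -0.52 to 0.0188 for P2ry12, -0.64 to 0.0576 for Cx3cr1, -0.79 to 0.0113 for C1qa, -0.71 to 0.77 for C1qb, -0.96 to 0.0174 for C1qc, -0.48 to 0.25 for Trem2, -0.78 to 0.20 for Tyrobp, -0.25 to 0.36 for Sall1, -0.0190 to 0.88 for Gpr34, -0.22 to 0.0596 for Cd68, -0.42 to 0.45 for Irf8, -1.18 to 0.89 for Runx1 and -0.67 to 0.0740 for Apoe. The cause was not tested. Members under about 20 counts per library, such as Ms4a7, Ptprc, Aif1 and Runx1, are limited by counting error. Without WT 1 this also holds for Lyve1, Pf4 and Cd163, which had 10, 4 and 3 counts in WT 4.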

Other observations

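Mast cells, which lie in the meninges, were followed by Hdc, the histidine decarboxylase gene that makes histamine. It had 3 counts in KO 5 and 6 in KO 6, against 20 in WT 1 and 17 in WT 4, with a log2 fold change of -1.96 (edgeR unadjusted p 0.0101) that was -1.87 without WT 1. The protease gene Cma1 had 2 counts in KO 5 and 5 in KO 6, against 3 in WT 1 and 17 in WT 4, and Cpa3 had 2 counts in KO 5 and 2 in KO 6, against 2 in WT 1 and 16 in WT 4. For Hdc both KO libraries lay below both WT libraries, while the proteases were high in WT 4 alone. Neurons can also express Hdc.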
